A study of Mus musculus with 18 samples.

Results

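The unfolded protein response and the secretory load of the endoplasmic reticulum (ER) were followed with 40 genes in organoids of the mouse small intestine given an adrenergic agonist. The 40 genes were taken by symbol from a list of ER chaperones, stress sensors with their transcription factors, ER-associated degradation genes, translocation genes and integrated stress response targets. The list was chosen with earlier results of these data known. All 40 were found among the 55487 rows of the deposited count table, and all 40 were abundant enough to be tested. The organoids, cultures of intestinal epithelium grown from crypts, came from female wild-type (WT) C57BL/6 mice and carried no transgene. Norepinephrine, the transmitter of sympathetic nerves that acts on alpha and beta adrenergic receptors, was given at 1 µM for 4 days to 5 samples, and 4 samples received its vehicle HCl for the same 4 days. UK14,304, an agonist selective for alpha-2 adrenergic receptors, was given at 1 µM for 4 days to 5 samples, and 4 samples received its vehicle DMSO. The samples carry replicate numbers 1 to 5, and number 5 has agonist samples but no vehicle sample. The labels do not say whether a number stands for one mouse. The number is fitted as a block, so p-values measure the spread left between these samples after differences between numbers are removed.

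Total counts per sample ran from 21866149 to 27850373, of which the 40 genes took 1.11 to 1.22%. The epithelial markers Epcam, Cdh1, Vil1 and Krt8 were all abundant, with a summed level of 4948 to 5454 CPM (counts scaled to one common library size with TMM factors) over the 18 samples. The 8 markers of immune, mesenchymal and endothelial cells summed to 0.863 to 2.64 CPM, and Cd3e, Col3a1 and Cdh5 had a median of 0 CPM. The ribosomal RNA gene CT010467.1 took 1.83 to 3.06% of counts in 7 libraries and 0.313 to 0.619% in 11. Those 7 were 3 of 4 DMSO vehicle, 1 of 5 UK14,304, 1 of 4 HCl vehicle and 2 of 5 norepinephrine samples. The norepinephrine sample of number 4 stood apart from its group in base composition. Its expression rose by 0.208 log2 units for each 10 percentage points of exon GC content, against slopes of -0.156 to -0.0763 in the other norepinephrine samples. The HCl vehicle samples had slopes of 0.049 to 0.079, so those other norepinephrine samples tilted away from their own vehicle. Leaving out number 4 therefore does not remove the GC difference between norepinephrine and vehicle. The UK14,304 sample of number 4 had the lowest slope of all 18 samples, at -0.239. The UK14,304 samples of numbers 1 to 3 had slopes of 0.065, -0.017 and -0.094. The DMSO vehicle samples of numbers 1 to 4 had slopes of 0.106, 0.130, -0.040 and 0.061. Each UK14,304 sample of these numbers thus had a lower slope than its own vehicle sample. The calls for norepinephrine are given with and without its sample of number 4.

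When unfolded proteins build up in the ER, the resident sensors Ern1 (IRE1alpha), Eif2ak3 (PERK) and Atf6 are activated. Ern1 splices the messenger of Xbp1, Atf6 is cut to release a transcription factor, and Eif2ak3 phosphorylates the initiation factor eIF2alpha. Spliced Xbp1 and cut Atf6 raise chaperone and degradation genes, whereas phosphorylated eIF2alpha slows translation in general while allowing translation of Atf4. Other kinases that sense amino acid shortage, haem shortage or double-stranded RNA converge on the same phosphorylation, and this wider pathway is called the integrated stress response. In the intestine, Paneth and goblet cells carry a heavy secretory load, and Ern2 (IRE1beta) is a sensor found mainly in mucosal epithelium. Splicing of Xbp1, cutting of Atf6, phosphorylation and protein amounts leave no direct trace in counts per gene and were not measured here.

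The promoters of the genes give a view of both arms before any expression value. RefSeq windows of 300 bases (GRCm38.p6), 250 before and 50 after the start site, were at hand for 33 of the 40 genes. The ER stress response element (ERSE: CCAAT, then 9 bases of any kind, then CCACG, searched on both strands) was present in Hspa5, Hsp90b1, Pdia6, Calr, Canx, Dnajc3, Creld2 and Syvn1. That is 8 of 33 genes, where 0.137% of the 27025 symbols with a window hold it. The related ERSE-II (ATTGG, then 1 base of any kind, then CCACG) was present in Herpud1 and Dnajb11, against 0.0444% of symbols. The amino acid and Atf4 response letters were searched first as TGATGNAAT, which no member held and 1.08% of symbols did. The shorter TGATGNAA, tried after that result, was present in Atf3, Chac1, Asns, Trib3 and Herpud1, which is 5 of 33 genes against 4.51% of symbols. The more specific TGATGCAA, which overlaps it, was present in Atf3, Chac1 and Herpud1, against 1.03% of symbols. The letters TGACGTGG had no match in the 33 windows (0.714% of symbols), and TGACGTCA matched in Ppp1r15a (2.03% of symbols). A match is a match of letters in one window and is no evidence that a factor binds there.

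The 250 bases before the start site are shown for a chaperone pair and for Herpud1, which carry the ER stress elements, and for Atf3, Chac1 and Asns, which carry the shorter Atf4 response letters. Capitals mark the fixed letters of the matched ERSE, ERSE-II or TGATGNAA element, also where it lies on the other strand.
Hspa5, GRCm38.p6, chr2:34771840-34772089, strand +: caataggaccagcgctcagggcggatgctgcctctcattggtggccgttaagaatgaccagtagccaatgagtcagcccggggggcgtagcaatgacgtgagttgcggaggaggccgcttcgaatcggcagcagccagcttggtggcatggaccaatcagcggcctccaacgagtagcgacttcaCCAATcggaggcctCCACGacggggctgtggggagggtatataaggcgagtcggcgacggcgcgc
Hsp90b1, GRCm38.p6, chr10:86705445-86705694, strand -: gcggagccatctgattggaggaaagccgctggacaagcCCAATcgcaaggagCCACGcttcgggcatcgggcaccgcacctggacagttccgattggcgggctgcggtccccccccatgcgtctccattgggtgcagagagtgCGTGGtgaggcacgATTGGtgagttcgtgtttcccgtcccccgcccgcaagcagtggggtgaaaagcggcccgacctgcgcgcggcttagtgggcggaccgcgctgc
Herpud1, GRCm38.p6, chr8:94386179-94386428, strand +: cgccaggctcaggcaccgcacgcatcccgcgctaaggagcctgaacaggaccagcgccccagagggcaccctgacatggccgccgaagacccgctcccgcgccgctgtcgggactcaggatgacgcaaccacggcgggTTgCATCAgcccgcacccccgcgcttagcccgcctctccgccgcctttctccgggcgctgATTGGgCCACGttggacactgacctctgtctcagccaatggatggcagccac
Atf3, GRCm38.p6, chr1:191183334-191183583, strand -: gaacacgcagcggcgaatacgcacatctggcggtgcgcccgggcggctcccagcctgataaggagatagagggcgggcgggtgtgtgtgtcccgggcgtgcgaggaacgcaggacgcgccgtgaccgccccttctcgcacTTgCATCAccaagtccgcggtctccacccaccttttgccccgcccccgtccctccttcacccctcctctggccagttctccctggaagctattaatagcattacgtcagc
Chac1, GRCm38.p6, chr2:119350992-119351241, strand +: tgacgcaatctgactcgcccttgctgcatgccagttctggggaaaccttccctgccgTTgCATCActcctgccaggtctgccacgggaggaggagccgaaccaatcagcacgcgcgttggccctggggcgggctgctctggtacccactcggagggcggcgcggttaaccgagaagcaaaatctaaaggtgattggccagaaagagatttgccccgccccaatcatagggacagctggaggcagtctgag
Asns, GRCm38.p6, chr6:7693210-7693459, strand -: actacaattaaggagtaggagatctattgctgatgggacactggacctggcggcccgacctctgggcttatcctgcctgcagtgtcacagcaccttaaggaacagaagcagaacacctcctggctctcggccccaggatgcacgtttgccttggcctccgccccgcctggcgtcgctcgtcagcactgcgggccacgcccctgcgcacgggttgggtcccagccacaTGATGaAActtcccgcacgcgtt
Hspa5 held 1 ERSE at -65 to -47 from the start site, and Hsp90b1 held 2, at -212 to -194 and at -107 to -89. Herpud1 held ERSE-II at -52 to -42 and TGATGCAA at -112 to -105 on the other strand. In Atf3 the TGATGCAA letters lay at -110 to -103 and in Chac1 at -193 to -186, both on the other strand, and in Asns TGATGAAA lay at -23 to -16. In Trib3 the match was downstream of the start site, at 15 to 22. In the Ensembl annotation of the count table, exons of the same gene begin inside these windows for 120 bases in Hspa5, 65 in Hsp90b1, 45 in Asns, 13 in Chac1 and 7 in Atf3, whereas the Herpud1 window holds none. The remainder holds no annotated exon, apart from 4 bases of Gm25745 in Hsp90b1, and in Atf3 it lies within the span of the gene. Overlap with introns of other genes was not checked. The ERSE of Hspa5 and the TGATGAAA of Asns lie within the annotated exon of their own gene.

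In the 8 vehicle samples the 6 most abundant of the 40 genes were chaperones, followed by Atf4 and Ssr2, while the other 8 chaperones lay lower. Levels between genes are given per length, as RPKM, the CPM divided by the exon length in kilobases. P4hb, a protein disulfide isomerase, was at 1002 RPKM ± 85.0 (SD, n = 8), above 99.9% of the 15247 tested genes. Calr, a calcium-binding chaperone of glycoproteins, was at 378 ± 11.0 RPKM (n = 8). Hspa5 (BiP), the main ER chaperone, was at 263 ± 13.7 RPKM, and Pdia3 was at 260 ± 5.91 RPKM with an overlapping range. Of the transcription factors, Atf4 was at 126 ± 9.66 RPKM and Xbp1 at 76.3 ± 2.71 RPKM. The sensors stood much lower, with 12.2 ± 0.365 RPKM for Atf6, 8.41 ± 0.246 for Ern1, 8.16 ± 0.473 for Ern2 and 7.39 ± 0.299 for Eif2ak3, and the ranges of Ern1 and Ern2 overlapped. Apart from Asns at 72.1 ± 8.42 RPKM, the integrated stress response targets lay at the low end, from 13.0 ± 2.67 RPKM for Trib3 to 4.61 ± 0.679 for Ppp1r15a, the phosphatase subunit that reverses eIF2alpha phosphorylation. The median of all tested genes was 4.80 RPKM, and 39 of the 40 genes were above it. In this order, 10 of 39 neighbouring pairs had ranges that did not overlap.

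**Figure D1:**
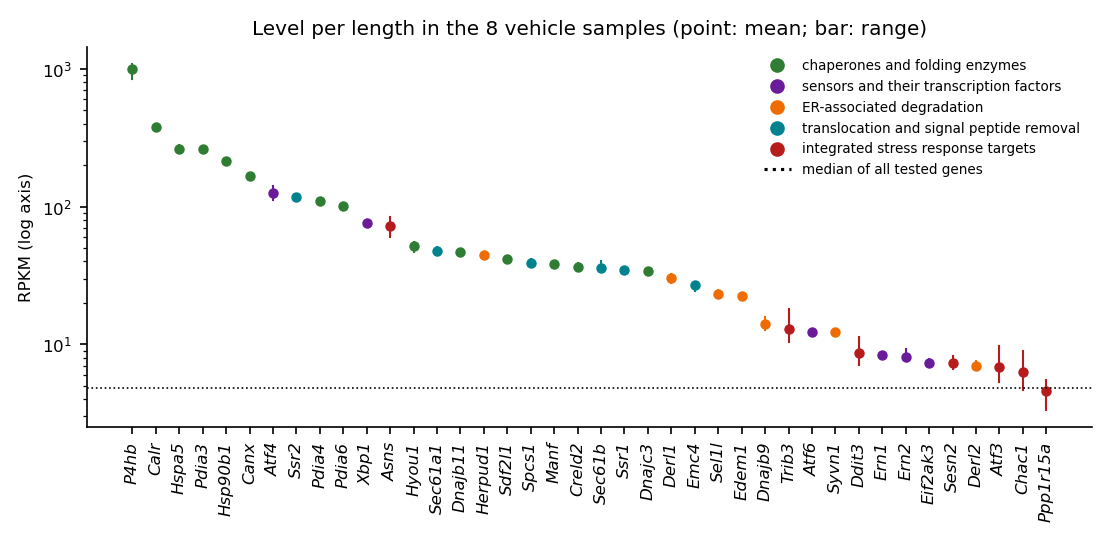
Level of each of the 40 genes in the 8 vehicle samples, in RPKM on a log axis, with the mean as a point and the range as a bar, coloured by role. Chaperones hold the 6 highest places, P4hb leads at 1002, and Ppp1r15a alone has its mean below the dotted median of all tested genes at 4.80.

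Treatment with UK14,304 lowered genes of the integrated stress response. Of the 40 genes, 5 fell (adjusted p under 0.05, edgeR quasi-likelihood test with replicate number as a block) and 0 rose, where 1.04% of the 15247 tested genes fell and 0.177% rose. The 5 were Atf4 and its targets Atf3, Ddit3, Trib3 and Asns, so that 4 of 7 integrated stress response targets, 1 of 6 sensors and factors, and 0 of 27 other genes passed. With the GC trend of each library removed, 8 of 40 fell, the 5 and Chac1 with the chaperone Pdia6 (-0.10 ± 0.03, adjusted p = 0.0363) and the degradation gene Edem1 (-0.12 ± 0.03, adjusted p = 0.0109), where 2.87% of tested genes fell. The median log2 fold change was -0.46 over the 7 targets and -0.05 over the other 33 genes, beside -0.0043 over all tested genes. Without the UK14,304 sample of number 4, which had the lowest GC slope, all 5 still passed. That fit does not remove the GC difference between UK14,304 and vehicle, which was also there in numbers 1 to 3. The call rests on comparing samples of the same number. Without the replicate block, 0 of the 40 genes passed by edgeR, with adjusted p between 0.146 and 0.444 for the 5 genes. In that fit 2 genes fell in the whole table (0.0131%). At an unadjusted p under 0.05 there were 10 of the 40 genes, beside 1708 of the 15247 tested genes.

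Atf4 encodes the transcription factor at the centre of the integrated stress response. It was at 296, 332, 265 and 295 CPM in the DMSO vehicle samples of numbers 1 to 4. In the UK14,304 samples of numbers 1 to 5 it was at 259, 255, 224, 232 and 253 CPM. All 5 UK14,304 samples lay below all 4 vehicle samples. The log2 fold change was -0.28 ± 0.05 (SE, adjusted p = 0.00451), and the log2 ratio of samples with the same number was below 0 in 4 of 4 pairs, from -0.38 to -0.19. Atf4 (ENSMUSG00000042406) lies at chr15:80255184-80257541 on the plus strand of GRCm38.

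Atf3, a stress-induced repressor of the same bZIP family, showed the greatest fall of the 40 genes. It was at 11.9, 21, 13.9 and 13.0 CPM in the vehicle samples of numbers 1 to 4. In the UK14,304 samples of numbers 1 to 5 it was at 8.63, 11.4, 6.90, 8.65 and 9.16 CPM. The groups did not overlap, and the vehicle sample of number 2 stood well above the other 3. The log2 fold change was -0.72 ± 0.09 (adjusted p = 0.000564), a level that fell by 39.4%, and the same-number log2 ratios ran from -1.001 to -0.46. Atf3 (ENSMUSG00000026628) lies at chr1:191170296-191218039 on the minus strand.

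Ddit3 (CHOP), a factor that promotes cell death under lasting ER stress, was at 12.1, 17.4, 13.3 and 15.2 CPM in the vehicle samples. In the 5 UK14,304 samples it was at 10.3, 12.9, 8.30, 9.22 and 11.2 CPM. The groups overlapped through the UK14,304 sample of number 2, although in numbers 1 to 4 each UK14,304 sample was below the vehicle sample of its own number. The log2 fold change was -0.48 ± 0.09 (adjusted p = 0.00658). Ddit3 is carried by 2 identifiers, of which the one with more counts (ENSMUSG00000025408, chr10:127290774-127296288) was used, and 10.9% of its exon bases are shared with other genes, so its counts are less certain.

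Trib3, a pseudokinase that restrains Atf4 and is itself an Atf4 target, was at 24.5, 38.5, 21.9 and 26.2 CPM in the vehicle samples. With UK14,304 it was at 21.7, 24.4, 13.3, 18.2 and 19.6 CPM. The groups overlapped, and 4 of 4 pairs were lower with the agonist. The log2 fold change was -0.50 ± 0.10 (adjusted p = 0.0102), and the gene did not pass without DMSO vehicle sample 2 (adjusted p = 0.101), DMSO vehicle sample 3 (0.0518) or UK14,304 sample 3 (0.0587). Trib3 (ENSMUSG00000032715) lies at chr2:152337422-152344032.

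Asns, asparagine synthetase, was at 191, 220, 166 and 207 CPM in the vehicle samples. With UK14,304 it was at 169, 197, 136, 173 and 167 CPM. The group ranges overlapped widely, and the same-number log2 ratios were close together, from -0.28 to -0.16. The log2 fold change was -0.22 ± 0.04 (adjusted p = 0.00537). Asns (ENSMUSG00000029752) lies at chr6:7675169-7693254.

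The 3 other targets were also lower in 4 of 4 pairs and did not pass by edgeR, while DESeq2 with the replicate block called Chac1 (adjusted p = 0.0490). Chac1, which degrades glutathione, was at -0.46 ± 0.14 (adjusted p = 0.125). Its same-number log2 ratios spread from -1.04 to -0.02, and it was counted only 101 to 339 times per library. The values were -0.18 ± 0.07 for Sesn2 (adjusted p = 0.224), a stress-induced inhibitor of mTORC1 signalling, and -0.19 ± 0.09 for Ppp1r15a (adjusted p = 0.347). All 18 samples share 1 model, and without the norepinephrine sample of number 4 Chac1, Sesn2 and the chaperone P4hb passed as well, which made 8 of 40, where 4.27% of tested genes fell in that fit. Over the whole list, 20 of 40 genes were lower in all 4 pairs and 2 were higher in all 4, where 15.5% of all tested genes were lower in all 4. In 5 of 40 genes all UK14,304 samples were below all vehicle samples, where 1.78% of tested genes were. Besides Atf4 and Atf3 these were Pdia6, Creld2 and Edem1, named here for that count alone, at log2 fold changes of -0.09, -0.14 and -0.08 that did not pass.

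**Figure D2:**
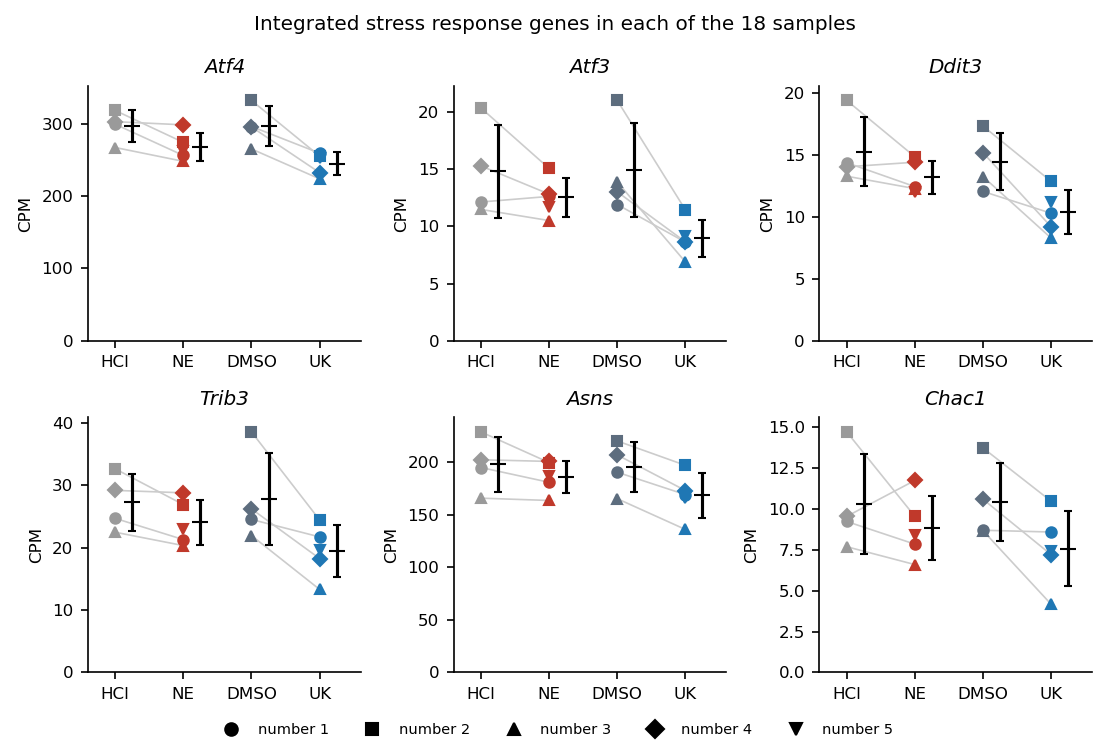
CPM of Atf4, Atf3, Ddit3, Trib3, Asns and Chac1 in each of the 18 samples (HCl vehicle, norepinephrine NE, DMSO vehicle, UK14,304 UK), with the marker giving the replicate number, grey lines joining samples of the same number, and the black bar giving mean and SD. In Atf4 and Atf3 all UK14,304 points lie below all DMSO points, and in Atf3 the number 2 square is the highest of numbers 1 to 4 in each group.

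The replicate numbers differed from each other in these genes in every group. For Ddit3 and Atf3 the sample of number 2 was the highest of numbers 1 to 4 in each of the 4 groups, which held for 4.89% of tested genes. For Trib3, Asns and Chac1 it was the highest in 3 of 4 groups, and the sample of number 3 was the lowest in all 4, as for 8.22% of tested genes. Over the 40 genes, number 2 was the highest in all groups for 4, Hspa5 and Derl1 included, and number 3 was the lowest in all groups for 8, among them P4hb, Calr, Xbp1, Atf4 and Derl1. In Atf3 this spread gave a coefficient of variation of 27.5% among DMSO vehicle samples, against 5.79% for Hspa5. With all samples of number 2 left out, or all of number 3, Atf3 alone of the 5 genes passed. With number 1 left out, the adjusted p of Asns was 0.0560 and the other 4 genes passed.

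Markers of Paneth cells, which make antimicrobial peptides at the crypt base, moved in the same comparison. All 5 measured were lower with UK14,304, and Lyz1 (-0.31 ± 0.05, adjusted p = 0.00310), Defa22 (-0.70 ± 0.10, adjusted p = 0.00208) and Ang4 (-0.27 ± 0.06, adjusted p = 0.0220) passed. Their summed level was 2227 to 3443 CPM in DMSO vehicle samples and 1941 to 2890 CPM with UK14,304. Of 4 goblet cell markers, 3 were lower and 1 was higher, with values from -0.23 to 0.11. Agr2, a disulfide isomerase of mucus-secreting cells, was the only one of them to pass (-0.16 ± 0.04, adjusted p = 0.0323). With the ribosomal RNA share in the model Agr2 (-0.16, adjusted p = 0.115) and Ang4 (-0.28, adjusted p = 0.0707) kept their direction and did not pass. With 1 sample left out they were at -0.165 to -0.150 and -0.31 to -0.21 and passed in part of the fits, and none of the Paneth cell falls passed without the replicate block (adjusted p from 0.508 to 0.542). No stem cell, enterocyte, enteroendocrine or tuft cell marker passed by edgeR, and DESeq2 called 1, an enterocyte marker. Of these markers 5 had an unadjusted p under 0.05, as did 14.8% of all tested genes. In bulk RNA, fewer cells of a type and less RNA per cell cannot be told apart, and the part of cell composition in the fall of the 5 genes was not tested. The ribosomal RNA share also moved with this comparison. With that share as a term in the model, Atf4, Atf3, Ddit3 and Asns passed (adjusted p from 0.00648 to 0.0344) and Trib3 did not (-0.39 ± 0.09, adjusted p = 0.0669). With the GC trend of each library removed, all 5 passed (adjusted p at most 0.000273), as did Chac1, Pdia6 and Edem1. In the fits without the norepinephrine sample of number 4, removing the GC trend moved Atf4 from -0.28 to -0.22 and Trib3 from -0.50 to -0.41. There Atf3 moved from -0.72 to -0.69 and Ddit3 from -0.47 to -0.44, and Asns stayed at -0.21.

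With norepinephrine at the same dose and time, 0 of the 40 genes passed by edgeR's test, and 0.105% of the tested genes passed in this comparison. At an unadjusted p under 0.05 there were 8 of 40 genes (20.0%), beside 8.40% of all tested genes, and DESeq2 with the replicate block also called 0 of the 40. All 7 integrated stress response targets had a negative log2 fold change, from -0.24 for Ppp1r15a to -0.08 for Asns, with a median of -0.19. Over the whole list 13 of 40 genes were lower in all 4 pairs and 0 were higher in all 4, where 8.26% of tested genes were lower in all 4. Of the 5 Paneth cell markers all were lower here too, and Lyz1 (-0.37 ± 0.05, adjusted p = 0.00190) and Defa22 (-0.69 ± 0.10, adjusted p = 0.00620) fell. Of the 4 goblet cell markers 3 were lower, with values from -0.19 to 0.0019, and 0 passed by edgeR. Without the sample of number 4 Lyz1 and Defa22 passed (adjusted p = 0.00101 and 0.00256), and Ang4 (-0.30 ± 0.07, adjusted p = 0.00950) and Agr2 (-0.16 ± 0.03, adjusted p = 0.00458) passed too. Without the replicate block neither Lyz1 nor Defa22 did (adjusted p = 0.713 and 0.723). The median of all 40 genes was -0.07, beside -0.0077 for all tested genes. Atf4 was at 299, 318, 267 and 303 CPM in the HCl vehicle samples of numbers 1 to 4. In the norepinephrine samples of numbers 1 to 5 it was at 256, 274, 248, 298 and 262 CPM. The groups overlapped through the samples of numbers 4 and 2, and the log2 fold change was -0.15 ± 0.05 (adjusted p = 0.556). Atf3 was at -0.21 ± 0.09, Ddit3 at -0.20 ± 0.08, Trib3 at -0.17 ± 0.10 and Asns at -0.08 ± 0.04 on the log2 scale (adjusted p from 0.575 to 0.616). Emc4, a subunit of the complex that inserts membrane proteins, had the lowest value of the 40 genes at -0.29 ± 0.07 (adjusted p = 0.293). It was at 28.1, 29.9, 28.6 and 28.9 CPM in HCl vehicle samples and at 24.3, 22.2, 22.8, 26.3 and 22.1 CPM with norepinephrine. Emc4 was the only one of the 40 genes whose groups did not overlap here, where 0.78% of tested genes had all norepinephrine samples below all vehicle samples.

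**Figure D3:**
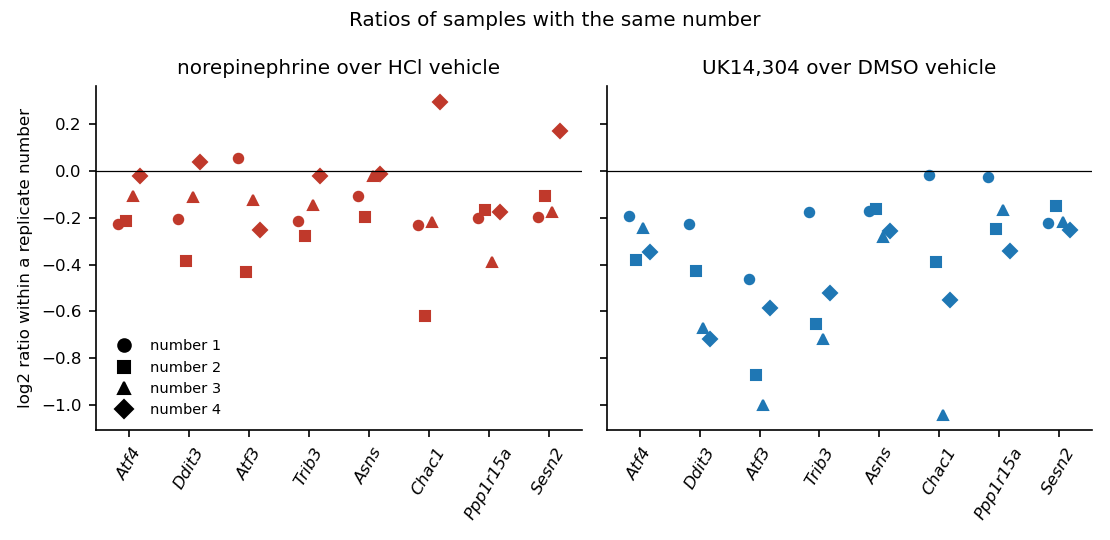
Log2 ratio of the agonist sample to the vehicle sample of the same replicate number for Atf4 and the 7 integrated stress response targets, left for norepinephrine and right for UK14,304, with the marker giving the number. For UK14,304 all points lie below 0, down to -1.04 in Chac1, whereas for norepinephrine the number 4 points of Ddit3, Chac1 and Sesn2 and the number 1 point of Atf3 lie above 0.

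The norepinephrine values depended on the sample of number 4. Without it, 10 of the 40 genes passed, 6 lower and 4 higher, while 16.7% of all tested genes passed and 7.55% passed as lower. Atf4 (-0.19 ± 0.04, adjusted p = 0.00294), Ddit3 (-0.24 ± 0.08, adjusted p = 0.0496), Sesn2, Ppp1r15a, Emc4 and Ssr2 were lower, and Pdia3, Hsp90b1, Canx and Ssr1 were higher. When the GC trend of each library was also removed, 2 of 40 genes passed, Emc4 (-0.27 ± 0.05, adjusted p = 0.00348) and the co-chaperone Dnajc3 (-0.10 ± 0.03, adjusted p = 0.0485), beside 1.11% of tested genes that passed as lower. Atf4 (-0.08 ± 0.03, adjusted p = 0.161) and Ddit3 (-0.19 ± 0.08, adjusted p = 0.209) did not pass in that fit. Among the 40 genes, the 11 with the lowest exon GC content (below 48%) all had their lowest norepinephrine value in the sample of number 4. The UK14,304 sample of number 4 was tilted the other way, and it held the highest value of its group in 8 of these 11 genes. These tilts belong to the whole libraries (slopes of 0.208 and -0.239 over 15229 genes). The same counts over all tested genes below 48% were not made, so they show no trait of the 40 genes. Dnajb9, a co-chaperone of Hspa5 and at 41.8% the lowest in GC, was at 31.1 CPM in the norepinephrine sample of number 4 and at 37.7 to 43.1 CPM in the other 4. In the UK14,304 sample of number 4 it was at 46.6 CPM, and in the other 4 at 29.9 to 36.6 CPM.

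**Figure D4:**
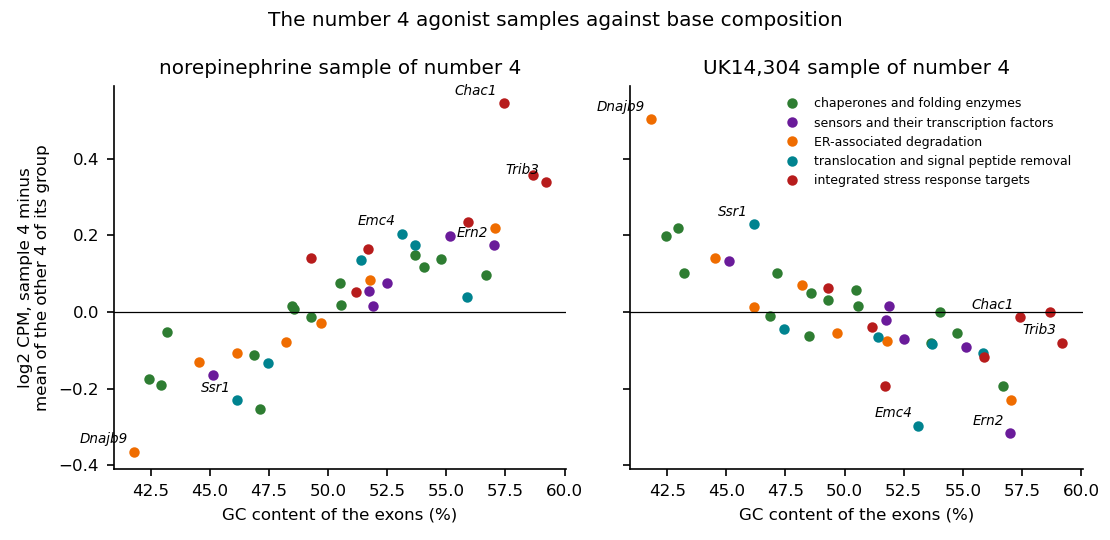
Difference in log2 CPM between the agonist sample of number 4 and the mean of the other 4 samples of its group, against the GC content of the exons in percent, for the 40 genes coloured by role. For norepinephrine the points rise from -0.36 in Dnajb9 to 0.54 in Chac1, and for UK14,304 they fall from 0.50 in Dnajb9 to -0.32 in Ern2.

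No sensor passed the test with either agonist. Ern1 had a log2 fold change of -0.09 ± 0.04 with UK14,304 (adjusted p = 0.308) and of -0.04 ± 0.04 with norepinephrine (adjusted p = 0.729). Ern2 had a value of -0.01 ± 0.08 with UK14,304 (95% confidence interval -0.18 to 0.16) and of -0.12 ± 0.08 with norepinephrine. Eif2ak3 was at -0.07 ± 0.05 and -0.09 ± 0.05, and Atf6 at -0.0019 ± 0.05 and 0.01 ± 0.05, for UK14,304 and norepinephrine. Xbp1, the factor made active by Ern1 and needed for Paneth cell secretion, was at -0.09 ± 0.03 with UK14,304 (adjusted p = 0.210), lower in 4 of 4 pairs, and at -0.05 ± 0.03 with norepinephrine. None of these 10 comparisons passed, and over all 10 the 95% confidence intervals of the log2 fold change stayed between -0.29 and 0.16.

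Of the chaperones, the textbook targets of Atf6 and spliced Xbp1, 0 of 14 passed with either agonist in the model of all 18 samples without a GC correction. With the GC trend removed Pdia6 fell with UK14,304, as given above, and P4hb fell with UK14,304 without the norepinephrine sample of number 4. For norepinephrine without that sample, Pdia3, Hsp90b1 and Canx passed as higher, at 0.12, 0.12 and 0.13. With the GC trend also removed none of them passed, and Dnajc3 passed as lower, at -0.10. Hspa5 was at 1075, 1181, 1033 and 1126 CPM in DMSO vehicle samples and at 1076, 1140, 1007, 1067 and 1075 CPM with UK14,304, and the groups overlapped. Its log2 fold change was -0.05 ± 0.03 with UK14,304 (95% confidence interval -0.12 to 0.02) and -0.03 ± 0.03 with norepinephrine (-0.10 to 0.04). With UK14,304, 0 of 14 chaperones and folding enzymes passed by edgeR or by DESeq2, where 1.04% of tested genes fell by edgeR. So few genes passed that 0 of 14 does not set the chaperones apart. At an unadjusted p under 0.05 there were 3 of 14, beside 14.8% of all tested genes. The values of the 14 ran from -0.14 for Creld2 to 0.04 for Pdia3, with a median of -0.05. P4hb, the most abundant, was at -0.12 ± 0.04 (adjusted p = 0.1502) and was lower in 4 of 4 pairs. With norepinephrine 0 of 14 passed by either tool, and the values ran from -0.11 to 0.05. Of the 14, 2 had an unadjusted p under 0.05, as did 8.40% of all tested genes. The summed level of the 14 genes was 9037 ± 424 CPM (SD, n = 4) with DMSO vehicle and 8753 ± 312 CPM (n = 5) with UK14,304, and it was lower in 4 of 4 pairs of the same number. P4hb weighs heavily in this sum, with means of 2832 CPM for DMSO vehicle and 2621 CPM for UK14,304. The log2 fold change was negative in 10 of the 14 genes and positive in 4. The summed level of the 7 integrated stress response targets was 302 ± 42.6 CPM with DMSO vehicle and 249.1 ± 35.0 CPM with UK14,304. Asns made up most of it, with means of 196 and 169 CPM.

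The 7 genes of ER-associated degradation, which return misfolded proteins to the cytosol, ranged from -0.09 to 0.04 with UK14,304 and from -0.08 to 0.06 with norepinephrine, and 0 passed for either agonist by edgeR or DESeq2. At an unadjusted p under 0.05 there were 2 of the 7 with UK14,304 and 0 with norepinephrine, beside 14.8% and 8.40% of all tested genes. Herpud1, a scaffold of this machinery that carries both kinds of promoter letters shown above, was at 97.7, 108, 101 and 102.4 CPM with DMSO vehicle. With UK14,304 it was at 105, 100, 94.0, 95.3 and 103 CPM, and the groups overlapped. Its log2 fold change was -0.04 ± 0.04 with UK14,304 (adjusted p = 0.676) and -0.07 ± 0.04 with norepinephrine. The 6 genes of translocation and signal peptide removal ranged from -0.14 (Emc4) to 0.04 with UK14,304, and 0 passed by edgeR or DESeq2. Of the 6, 2 had an unadjusted p under 0.05, beside the same 14.8% of all tested genes. Sec61a1, the channel of the ER translocon, was at -0.11 ± 0.04 (adjusted p = 0.245).

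**Figure D5:**
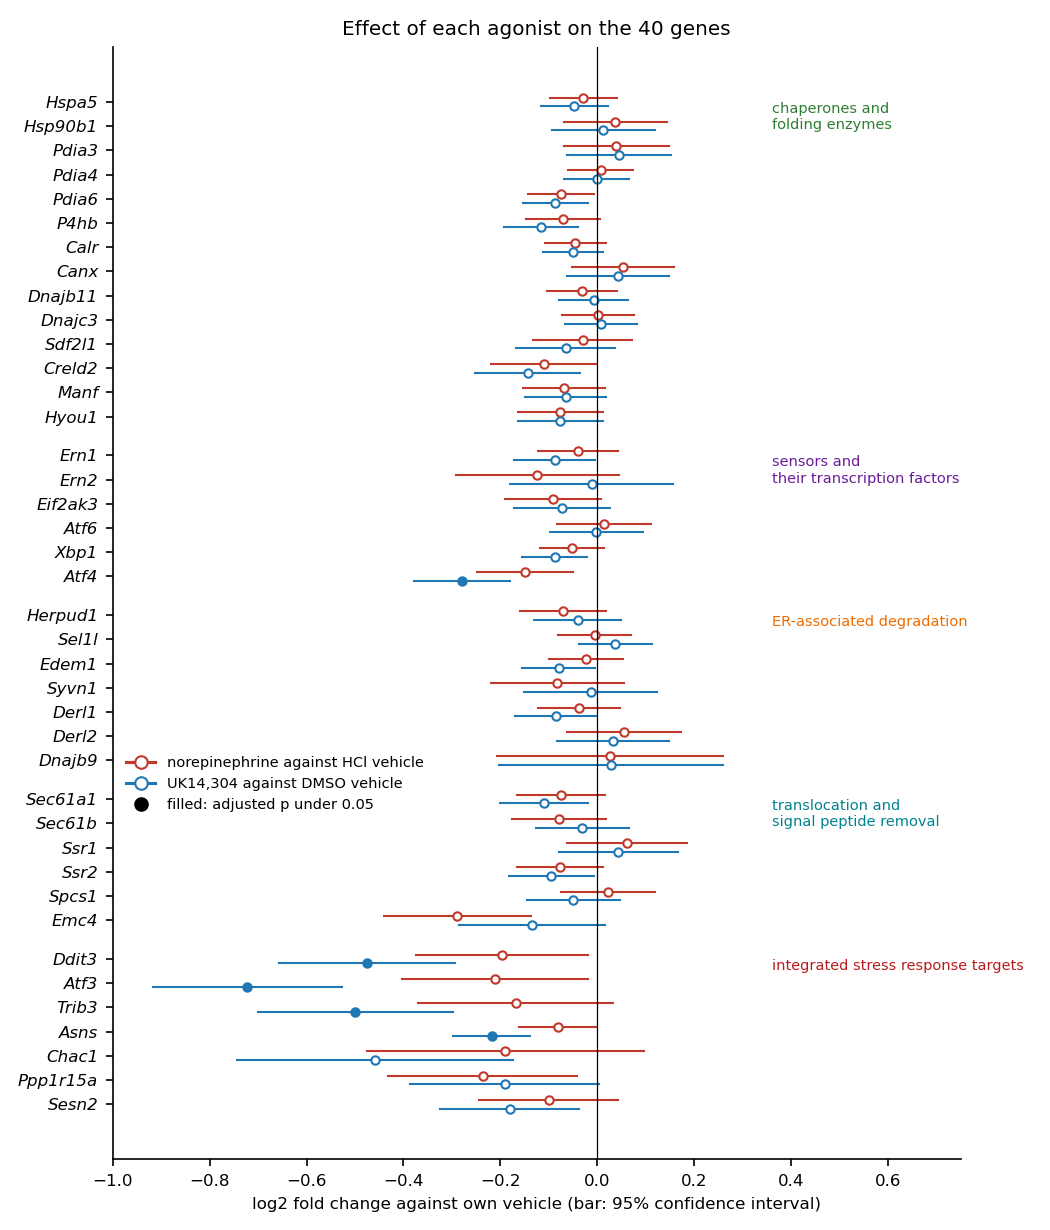
Log2 fold change of each of the 40 genes against its own vehicle, red for norepinephrine and blue for UK14,304, with 95% confidence intervals as bars and filled points where the adjusted p was under 0.05, grouped by role. The 5 filled points are Atf4, Ddit3, Atf3, Trib3 and Asns with UK14,304, while the chaperones lie between -0.14 and 0.05 for both agonists.

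The difference between the agonist effects was tested in the same model, each agonist being set against its own vehicle. For Atf3 the effect of UK14,304 was lower than that of norepinephrine by -0.51 ± 0.13 on the log2 scale, with an unadjusted p of 0.000787 (edgeR) and an adjusted p of 1.00. Trib3 (-0.33 ± 0.13), Ddit3 (-0.28 ± 0.12) and Asns (-0.14 ± 0.05) had unadjusted p of 0.0178 to 0.0293, also with an adjusted p of 1.00. With no filter on low counts Atf3 passed (adjusted p = 0.0289). By edgeR's test 0 of the 40 genes passed, as by DESeq2, where 0.0% of the 15247 tested genes passed. At an unadjusted p under 0.05 there were 4 of 40 genes, beside 2.66% of all tested genes. A fall of these genes with UK14,304 and not with norepinephrine is therefore not shown. The 2 agonists have different vehicles. In the comparison of HCl with DMSO vehicle 0 of the 40 genes passed by edgeR's test or DESeq2 and 0 had an unadjusted p under 0.05, and 0.0% of all tested genes passed.

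Further genes of the same pathways were counted in 6 lists with 104 genes, all of them tested. These lists were also chosen with earlier results of these data known, so their counts are no independent support for the falls above. With UK14,304 5 of 104 fell and 0 rose by edgeR, where 1.04% of tested genes fell, and DESeq2 called 9. With norepinephrine 0 passed by edgeR and 1 was called by DESeq2. At an unadjusted p under 0.05 there were 24 of 104, beside 8.40% of all tested genes. Of the 27 other integrated stress response genes, 25 had a negative log2 fold change and 4 passed with UK14,304, with a list median of -0.15. The 4 were Mthfd2 (-0.30 ± 0.05, adjusted p = 0.00310), an enzyme of mitochondrial one-carbon metabolism, and Psat1 (-0.21 ± 0.04, adjusted p = 0.00657), an enzyme of serine synthesis. The others were Vldlr (-0.40 ± 0.07, adjusted p = 0.00658), a lipoprotein receptor, and Atf5 (-0.32 ± 0.06, adjusted p = 0.0109), a transcription factor related to Atf4. Each of the 4 was lower in 4 of 4 pairs, and without the replicate block 0 of the 4 passed by edgeR (adjusted p from 0.374 to 0.408). With 1 sample left out, Psat1 did not pass without DMSO vehicle sample 3, Vldlr without DMSO vehicle sample 2 or 3, and Atf5 without either of these or UK14,304 sample 3, whereas Mthfd2 passed in all 18 such fits. Of the 8 ER genes of secretory cells, Agr2, given above among the goblet cell markers, passed. With UK14,304 0 of 18 other folding enzymes, 0 of 13 other degradation genes, 0 of 24 other translocation and glycosylation genes and 0 of 14 ER to Golgi transport genes passed by edgeR. DESeq2 called 2 of the folding enzymes and 0 in the other 3 lists. At an unadjusted p under 0.05 there were 6, 0, 4 and 4 genes in the 4 lists, beside 14.8% of all tested genes. The medians of these 4 lists were between -0.05 and 0.02.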

How the data were processed

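RNA of 18 organoid cultures was sequenced, and the authors deposited 1 table of whole-number counts of reads per gene, not normalized, with the exon length. According to the study's methods and the labels, 50 bp single reads were mapped with STAR 2.7.3 to GRCm38 and counted with featureCounts at its default settings, which leave out reads that map to several places or to several genes and do not use strand. The methods themselves state no featureCounts settings. The file header names version 2.0.1 and Ensembl 102, whereas the methods name Subread 1.6.4 and an earlier Ensembl release, and the header was followed. All 18 columns were matched to samples by name, and 0 were left unused. Symbols were matched for 55141 of 55487 identifiers.

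The 40 genes and all lists were chosen with earlier results of these data known. The counts as deposited were fitted in R 4.3.3 with edgeR 4.0.16 (TMM, filterByExpr by group, robust quasi-likelihood), all 18 samples in 1 model of 4 groups with the replicate number as a block. P-values were adjusted over all 15247 tested genes (Benjamini-Hochberg), with 0.05 as threshold. The numbers were taken to pair the samples because deviations from the group means correlated in every same-number pair of an agonist with its own vehicle, by 0.119 to 0.431 for norepinephrine and HCl and by 0.155 to 0.520 for UK14,304 and DMSO. Between the agonists the samples of number 4 (-0.212) and number 5 (0.0407) did not, so the pairing is less sure for the difference between agonists. CPM values are TMM-normalized, log2 CPM used a prior count of 2, and RPKM is CPM per kilobase of exon. The genes named with values are those that passed for either agonist, a fixed set (Ern1, Ern2, Eif2ak3, Atf6, Xbp1, Atf4, Hspa5, Herpud1, Ddit3, Asns) and up to 4 examples per role. DESeq2 1.42.0, other filters and scalings, GC, length and ribosomal RNA corrections and left-out samples were alternatives. The scripts were tested on simulated data. Exon bases shared with another gene were found for 15 of the 40 genes, and near copies (at least 50 bases at 95% identity, blastn 2.17.0) for 12.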

Additional observations from a re-analysis of the deposited data

Results flagged for a closer look

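In the 40 genes, each checked in 4 groups (160 checks), 4 values stood apart from their group by Dixon's criterion, which chance meets in about 1 of 20 groups. In the norepinephrine sample of number 4, Pdia3 was at 731.4 CPM, against 854.2 to 900.5 CPM in the other 4, and Ssr2 was at 228.6 CPM, against 197.2 to 206.1 CPM. Emc4 was at 21.4 CPM in the UK14,304 sample of number 4, against 25.8 to 26.6 CPM in the other 4. Ern1 was at 66.4 CPM in the HCl vehicle sample of number 3, against 70.6 to 71.1 CPM in the other 3.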

How the results depend on the processing

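Over 34 alternative settings, 1625 of 1768 values for 52 gene results kept their direction and side of the threshold, and none of the 43 that turned sign belonged to a result that passed. For UK14,304 the count of 5 genes was 0 without the replicate block, 8 with the GC trend removed (adding Chac1, Edem1 and Pdia6), 8 without the norepinephrine sample of number 4 with the GC trend removed, and 1 with all samples of number 2 or of number 3 left out. It was 4 to 8 when 1 sample was left out, 8 being without the norepinephrine sample of number 4. Of all tested genes 1.04% fell in the main fit, 0.0131% without the block and 2.87% with the GC trend removed. Without the norepinephrine sample of number 4 the share was 4.27%. For the other settings it is not given here, so a changed count need not concern the 40 genes alone. Atf3 passed in 33 of 34 settings, Atf4 and Ddit3 in 31, Asns in 30 and Trib3 in 27, Trib3 failing without DMSO vehicle sample 2 (adjusted p = 0.101), DMSO vehicle sample 3 (0.0518) or UK14,304 sample 3 (0.0587). The highest adjusted p of Agr2 with 1 sample left out was 0.127, and edgeR and DESeq2 with the block called 5 and 6 of the 40 genes. Of the 15247 tested genes, edgeR called 159 as lower and 27 as higher, and DESeq2 called 272 in either direction.

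For norepinephrine the count of 0 was 1 (Emc4) with no filter on low counts, with the GC trend removed, and with the ribosomal RNA share and GC trend together. It was 2 without the sample of number 4 with the GC trend removed, 10 with all samples of number 4 left out, and 0 to 10 when 1 sample was left out. Of all tested genes 0.105% passed in the main fit and 16.7% without the norepinephrine sample of number 4. With the GC trend removed as well, 1.11% passed as lower. For the other settings the share is not given here. The median log2 fold change was -0.0392 with the GC trend removed, -0.041 with the ribosomal RNA term as well, -0.026 without the sample of number 4 and the GC trend, -0.041 with number 1 left out, and -0.069 to -0.040 with 1 sample left out. For the difference between the agonists the count of 0 was 1 with no filter. The cause of these shifts was not tested.

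Values near 0 turned sign. With UK14,304 Ern2 was at 0.0549 with the GC trend removed, 0.000339 with the length trend removed, 0.014 with the ribosomal RNA term and GC, 0.0607 without norepinephrine sample 4 and GC, and 0.0087, 0.011 and 0.0388 with numbers 1, 2 and 4 left out. It was -0.0553 to 0.0541 with 1 sample left out. Atf6 with UK14,304 was at 0.0029 with DESeq2 size factors, 0.0028 with DESeq2, 0.012 with its own vehicle alone, 0.014 without number 5, 0.0330, 0.013 and 0.0011 with numbers 1, 2 and 3 left out, and -0.0593 to 0.0418 with 1 sample left out. With norepinephrine Atf6 was at -0.0370 (GC), -0.020 (length), -0.0348 (ribosomal RNA and GC), -0.0269 (without sample 4, GC) and -0.00078 to 0.0650 with 1 sample left out. In the norepinephrine comparison without sample 4 and GC, Ern1 was at 0.0238 and P4hb at 0.014. Edem1 was at 0.0079 with number 4 left out and -0.0358 to 0.014 with 1 sample left out, and Hspa5 at -0.0393 to 0.011. Pdia3 with UK14,304 was at -0.0045 with the ribosomal RNA term and GC. The 3 kinds of setting that combine corrections or leave out a whole number were chosen after seeing the data. Depth limits the genes of low count, such as Chac1 with 101 to 339 counts per library.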
